A study of Rattus with 9 samples.

Results

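The 7 genes described here were followed in the epithelium of 9 rat bile duct samples: Scgb1c1, Gast and Ttr, which encode secreted proteins, Akr1c15, Gatm and Dhrs9, which encode enzymes, and Cnfn, which encodes a structural protein. They are 7 of the 23836 gene symbols in the count matrices, and they were chosen by their UMI levels in the epithelial cells of these samples, which had been seen to shift between the study's groups, so their differences between groups and between days are given as a description and are not tested. The samples were 3 sham bile ducts (sham 1, 2 and 3), 3 ducts from rats that received a liver transplant with ischemic injury (ctrl, taken at days 1, 3 and 7) and 3 ducts from transplanted rats in which the splenic and gastroduodenal arteries were also ligated to raise hepatic arterial flow (treat, at the same days). Ischemic injury and transplantation are thus shared by ctrl and treat, and the ligation meant to raise flow is what separates them by design. The counts do not measure flow. The labels give no strain, age or sex, do not say whether the ctrl and treat ducts come from the graft of 1 rat or of several, and do not give the day of the sham ducts.

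The bile duct is lined by biliary epithelial cells (BEC), with mucus-secreting goblet cells, chemosensory tuft cells and scattered hormone-producing cells among them. Transthyretin (Ttr) carries thyroid hormone and, through retinol-binding protein, vitamin A, while Dhrs9 is a short-chain dehydrogenase that acts on retinol and steroids. Akr1c15 belongs to the aldo-keto reductases, a family that reduces carbonyl groups of steroids, prostaglandins and lipid aldehydes. Gatm catalyzes the first step of creatine synthesis, with arginine and glycine as its substrates. Gast encodes gastrin, a peptide hormone of endocrine cells, Scgb1c1 a small secretoglobin of secretory epithelia, and Cnfn cornifelin, a component of the cornified envelope of squamous epithelium.

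Droplet-based 3' single-cell RNA sequencing gave 20 libraries, 1 for each sham, 3 for each ctrl and 3, 2 and 3 for treat days 1, 3 and 7, with 14398295 to 109245177 UMIs (unique molecules counted) per library. Levels are given as CPM, the UMIs of a gene per 1000000 UMIs of all epithelial cells of a sample, a scale on which 3' counts do not depend on gene length. After the limits on cells 139857 cells remained, of which 28428 were epithelial: 995, 2507 and 2573 in sham 1 to 3, 5081, 840 and 3005 in ctrl at days 1, 3 and 7, and 4949, 3278 and 5200 in treat. All 10 epithelial markers were higher in these cells than in the other cells in 9 of 9 samples, Epcam at 1682 to 2907 against 7.51 to 28.8 CPM. The same markers had picked the epithelial cells, so this describes the choice and is no separate check of it. The summed hepatocyte markers were at 409 to 1370 CPM in them, of which Alb was at 1.29 to 15.4 CPM and Apoh at most at 0.404 CPM, and their part in the values below was not tested. Sham 1 stood apart, with 48.4% of its epithelial cells in a tuft-like subset against 29.3% and 24.4% in sham 2 and 3. In ctrl day 3, the limit on hemoglobin UMIs left 27 and 45 epithelial cells in libraries 2 and 3, so that 768 of its 840 cells come from library 1, and the summed markers of endocrine cells reached 5626 CPM there against 8.08 to 873 CPM in the other samples. Any 2 libraries shared at most 1.19% of the cell barcodes of the smaller one.

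Scgb1c1 was a gene of the sham epithelium. Its level was 36.1, 184 and 234 CPM in sham 1, 2 and 3, 2.31, 3.87 and 3.28 CPM in ctrl at days 1, 3 and 7, and 3.27, 7.24 and 8.89 CPM in treat at the same days. Each sham sample lay above each transplanted sample, and sham 1 lay well below the other sham samples. The group means were 151 ± 103, 3.15 ± 0.790 and 6.46 ± 2.89 CPM (SD, n = 3 each). For ctrl and treat the 3 samples are days 1, 3 and 7, so here and below their SD also spans the days. The fitted level was 41.5-fold lower in ctrl than in sham (log2 −5.37, and −4.32 with doublets kept). Of the epithelial Scgb1c1 UMIs of all samples, of which sham 2 and 3 had 2711 and 4613 of 8342, 65.3% lay in 259 cells of 1 small subset led by Apoe, Rarres2 and Alb (subset 13, to which the fixed markers give no name), and 22.7% in the BEC-like subset 4. Sncg, Sparc, Tagln and Bgn were also among the leading genes of subset 13. In it 8 of 12 BEC markers were detected, and 4 hepatocyte markers stood above the other epithelial cells. The part of other cell types in it was not tested. In subset 13 the level was 4182 and 3735 CPM in sham 2 and sham 3, with 87 cells in each. Sham 1 had 4 such cells, and there subset 4 held 62.1% of the Scgb1c1 UMIs and subset 13 held 19.3%. Subset 13 held 0 of the UMIs of ctrl day 1 and treat day 3, where 52.2% lay in subset 9 (led by Gkn3) and 87.3% in subset 8 (led by Cxcl1). The transplanted samples had between 1 and 38 cells of this subset. The 38 cells of treat day 1 held 14.2 CPM, while the 19 cells of treat day 7, too few for a level, held 47.5% of the Scgb1c1 UMIs of that sample. Over all samples 52 cells held 50% of the 8342 Scgb1c1 UMIs.

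Ttr was also highest in sham, and with the libraries of a sample summed it was higher in treat than in ctrl at each day. The 3 sham samples had 281, 230 and 182 CPM, the ctrl samples 26.3, 13.3 and 39.3 CPM and the treat samples 63.1, 81.3 and 84.3 CPM. No sample values overlapped between any of the 3 groups, but libraries of 1 sample differed. Without library 1, which held most of their Ttr UMIs, ctrl day 1 was at 13.2 CPM and ctrl day 3, from few cells, at 56.4 CPM. The 3 libraries of treat day 7 were at 29.8, 6.69 and 187 CPM. Library 3 held 2310 of the 2676 Ttr UMIs of that sample, and without it the level was 18.9 CPM, below ctrl day 7 at 39.3 CPM and at 34.5 CPM without its own library of most Ttr UMIs. The means were 231 ± 49.4, 26.3 ± 13.0 and 76.2 ± 11.5 CPM (SD, n = 3 each). The fitted level was 7.45-fold lower in ctrl than in sham (log2 −2.90, and −4.07 in BEC-like subsets only, which leave out subsets 8 and 9). In sham, 77.4% to 81.8% of epithelial Ttr UMIs lay in BEC-like subset 4 (with Pou2af1 and Mmp7 among its leading genes). After transplantation other subsets held more of them, except that in ctrl day 3 subset 4 still held 34.5% beside 38.9% in subset 9. Of the Ttr UMIs, 70.6% in ctrl day 1 and 56.9% in treat day 1 lay in subset 9 (led by Gkn3, Tf and Fgg), and 74.2% in treat day 3, 69.7% in treat day 7 and 47.7% in ctrl day 7 lay in subset 8 (led by Cxcl1, Cxcl2 and Ccl20). Within subsets the order of the arms was not fixed: at day 1 the level was 53.5 CPM in ctrl and 251 CPM in treat in subset 9 but 399 and 144 CPM in subset 4, and at day 7 it was 105 and 184 CPM in subset 8 but 165 and 146 CPM in subset 9. Epithelial cells held 97.4%, 96.8% and 97.1% of the Ttr UMIs of all cells in sham, ctrl and treat.

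Gast was held mostly by tuft-like cells in 6 of 9 samples, by BEC-like subset 4 in sham 3 (70.9% of its UMIs, with 278 of the subset's 482 in 1 cell), by subset 8 in treat day 3 (58.7%) and by a single cell in treat day 7. Its level over the epithelium was 21.3, 16.6 and 34.6 CPM in sham, 4.72, 4.70 and 2.43 CPM in ctrl, and 4.15, 5.74 and 447 CPM in treat. The value of treat day 7 stood far from all others. In that sample 1 cell of library 1 held 13644 Gast UMIs, 96.1% of the sample's epithelial Gast and 41.1% of the 33190 UMIs of the cell itself, which also had UMIs of the endocrine genes Gcg, Chga and Chgb. Without it the sample's level was 17.6 CPM. In sham 3 a cell with 278 UMIs held 40.9% of the Gast UMIs, and the level without it was 20.5 CPM. Gast in barcodes with 100 UMIs or fewer, which hold RNA free in the suspension, was 138 CPM in that sample, and 31.5% of the epithelial Gast UMIs there would come from free RNA at the estimated share of free RNA in its cells. With the estimated free RNA subtracted, the mean of sham was 21.8 ± 4.59 CPM, against 24.2 ± 9.31 CPM without subtraction (SD, n = 3).

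Within the tuft-like subset, subset 2 (with Rgs13 and Ltc4s among its leading genes), the Gast level of the transplanted samples overlapped that of sham. It was 77.0, 154 and 201 CPM in sham, 139, 143 and 370 CPM in ctrl and 152, 187 and 349 CPM in treat. The highest values were those of both arms at day 7, but few UMIs lay behind those of ctrl: 24 of the 41 Gast UMIs of the subset in ctrl day 7 were in 1 cell, and without it the level was 158 CPM, within the range of sham. In ctrl day 3, 19 of 33 were in 1 cell, and the level without it was 61.9 CPM. In treat day 7 it was 278 CPM without the cell of most Gast UMIs. These cells were left out after seeing the data. The share of epithelial cells in the subset was 48.4%, 29.3% and 24.4% in sham, 12.1%, 10.0% and 1.73% in ctrl and 8.35%, 2.41% and 9.40% in treat. In BEC-like subsets alone mean Gast was 12.1 ± 14.8 CPM in sham and 0.706 ± 0.0755 CPM in ctrl (SD, n = 3 each). Sham samples differed widely there, with BEC-like subset 4 at 1.30, 6.95 and 32.3 CPM in sham 1, 2 and 3. Without its cell of 278 UMIs, subset 4 of sham 3 was at 13.7 CPM. Tuft-like cells held 63.3% to 97.9% of the epithelial Gast UMIs in sham 1, sham 2, the 3 ctrl samples and treat day 1, but 24.7% in sham 3, 14% in treat day 3 and 2.58% in treat day 7. With 1 sample per arm and day, the condition and other differences between samples cannot be told apart.

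**Figure D1:**
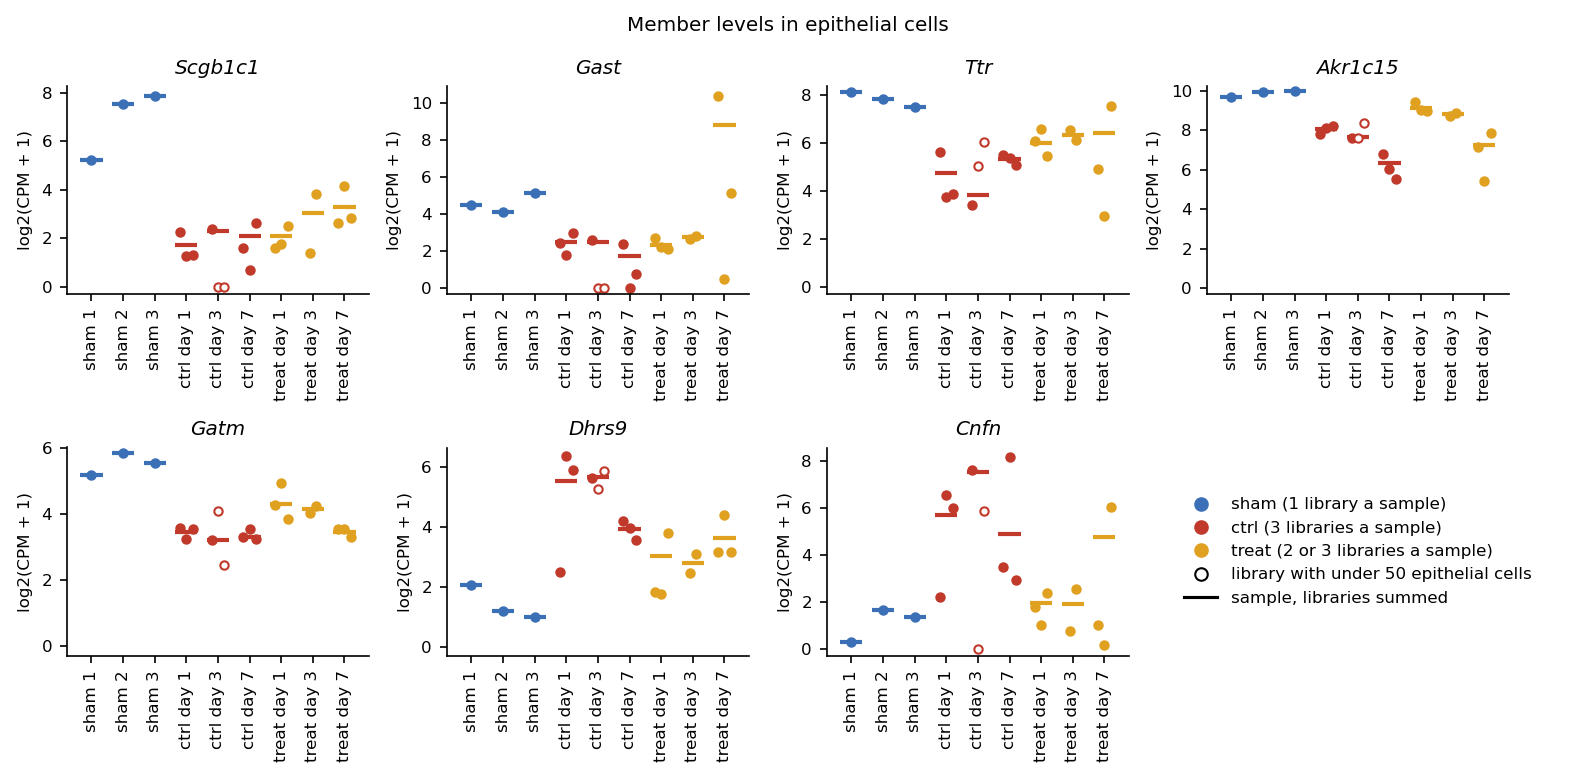
Level of each of the 7 genes in epithelial cells, as log2(CPM + 1), for the 9 samples on the horizontal axis. Lines give a sample with its libraries summed, points give its libraries, and open points are the libraries with under 50 epithelial cells. Scgb1c1, Ttr, Akr1c15 and Gatm lie highest in the 3 sham samples and Dhrs9 and Cnfn highest in ctrl, and for Gast 1 library of treat day 7 (1344 CPM) lies far above every other library.

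Among the enzymes, Akr1c15 was the most abundant in the epithelium and was lower at each later day after transplantation in both arms. It was at 816, 994 and 1032 CPM in sham, 262, 198 and 78.8 CPM in ctrl at days 1, 3 and 7, and 567, 445 and 149 CPM in treat. The lowest sham value lay above the highest transplanted value, and treat lay above ctrl at each day although the ranges of the arms overlapped. The means were 947 ± 115, 180 ± 92.9 and 387 ± 215 CPM (SD, n = 3 each), with a fitted level 4.91-fold lower in ctrl than in sham. In ctrl day 3 the few cells of libraries 2 and 3 alone gave 286 CPM, above ctrl day 1. In BEC-like subset 4 alone the levels were 1694, 1252 and 1206 CPM in sham, 899 and 654 CPM in ctrl at days 1 and 3, and 1681, 894 and 414 CPM in treat. Treat day 1 thus lay in the range of sham inside this subset. The subset itself made up 17.0%, 42.3% and 49.0% of the sham epithelium and 0.462% to 6.90% of the epithelium of transplanted samples, and ctrl day 7 had 18 such cells, too few for a level. Rat Akr1c genes are close copies of each other, so reads could be placed on the wrong copy, and the files do not tell how such reads were assigned.

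Gatm was lower in all transplanted samples, at a level that other cell types exceeded. The epithelial level was 35.2, 56.2 and 45.1 CPM in sham, 10.0, 8.22 and 8.72 CPM in ctrl and 18.7, 16.5 and 9.93 CPM in treat. Sham lay above all 6 transplanted samples, and treat above ctrl at each day. The means were 45.5 ± 10.47, 8.98 ± 0.921 and 15.05 ± 4.57 CPM (SD, n = 3 each), and the fitted level in ctrl was 4.19-fold lower than in sham. Epithelial cells held 52.4% of the Gatm UMIs of all cells in sham, 14.1% in ctrl and 22.3% in treat, and macrophage- and monocyte-like cells, at 83.5, 44.6 and 42.5 CPM, held 25.3%, 54.3% and 50.5%, more than epithelial cells in ctrl and in treat. In ctrl day 1 library 2 the level in near-empty barcodes was 50.0 CPM, above the epithelial 8.31 CPM, and 28.2% of the epithelial Gatm UMIs there would come from free RNA. The near-empty level was also the higher in all other transplanted libraries except ctrl day 1 library 3 and treat day 1 libraries 2 and 3. In sham 1, 2 and 3 it was 19.9, 43.1 and 37.9 CPM, below the epithelial level of each. With the estimated free RNA subtracted, the mean of ctrl was 8.48 ± 0.721 CPM (SD, n = 3). Inside the epithelium its holders differed between samples. BEC-like subset 4 held 77.6% to 80.3% of the Gatm UMIs in sham but 2.55% to 12.9% in the transplanted samples. Subset 6, led by the cell cycle genes Cenpf and Cdc20 and with only 3 of 12 BEC markers detected, so that it is given no name here, held 62.3% and 64.5% in ctrl and treat at day 1. Subset 8 held 71.5% in treat day 3 and 40.0% in treat day 7, and subset 1, led by Ido1, held 36.1% in ctrl day 7. In subset 6 the level was 89.4 and 71.9 CPM in sham 2 and 3, 18.1, 13.9 and 19.7 CPM in ctrl and 27.8, 30.01 and 19.8 CPM in treat. Sham 2 and 3 lay above each transplanted sample there, and in subset 4 sham 3, at 46.2 CPM, lay close to treat day 7, at 46.0 CPM from 24 cells.

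Dhrs9 moved the other way. It was at 3.14, 1.29 and 0.966 CPM in sham, 45.7, 49.2 and 14.2 CPM in ctrl and 7.19, 5.93 and 11.4 CPM in treat. All sham samples lay below all transplanted samples and all ctrl samples above all treat samples, with ctrl day 7 and treat day 7 near each other. The means were 1.80 ± 1.17, 36.4 ± 19.2 and 8.18 ± 2.87 CPM (SD, n = 3 each), and the fitted level was 28.0-fold higher in ctrl than in sham (19.8-fold without ctrl day 3 and 44.9-fold without ctrl day 7). Libraries of 1 sample did not give the same value: in ctrl day 1, library 1 had 4.58 CPM and libraries 2 and 3 had 82.3 and 58.4 CPM. Without the library of most Dhrs9 UMIs in each sample, ctrl day 7 was at 11.2 CPM and treat day 7 at 7.91 CPM, and treat day 1, at 2.47 CPM, lay below sham 1. Dhrs9 was not particular to the epithelium. Mesothelial-like cells held 17.3 to 378 CPM in the 8 samples with enough of them. Fibroblast-like cells had 54.5% of all Dhrs9 UMIs in sham, and neutrophil-like cells were at 28.4 CPM in ctrl and 40.1 CPM in treat, where they had 10.3% and 19.0% of them. Summed neutrophil markers were higher in ctrl than in sham epithelial cells (values below), and their part in the Dhrs9 level was not tested. Epithelial cells held 24.9%, 75.8% and 43.6% of all Dhrs9 UMIs in sham, ctrl and treat.

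Cnfn showed the same direction as Dhrs9 but rested on few cells. Its level was 0.224, 2.10 and 1.52 CPM in sham, 50.3, 183 and 28.3 CPM in ctrl and 2.84, 2.68 and 25.7 CPM in treat. With libraries summed, sham lay below all transplanted samples and ctrl above treat, but libraries of 1 sample spread widely. Those of ctrl day 7 were at 10.2, 285 and 6.47 CPM, and library 2 held 455 of the 631 Cnfn UMIs there. Without the library of most Cnfn UMIs in each sample, the levels were 31.6, 40.7 and 8.52 CPM in ctrl and 1.77, 0.674 and 0.568 CPM in treat. Ctrl then still lay above treat at each day, but all 3 treat samples lay below sham 2, so the order of sham and treat rests on 1 library in each. In ctrl day 1, library 1 was at 3.53 CPM, and in treat day 1 library 3 was at 4.15 CPM. The means were 1.28 ± 0.961, 87.3 ± 83.8 and 10.4 ± 13.2 CPM (SD, n = 3 each), with a fitted level 70.5-fold higher in ctrl than in sham (23.9-fold without ctrl day 3 and 157-fold without ctrl day 7), resting on 62 epithelial Cnfn UMIs in all of sham. In treat day 7 a single cell with 728 UMIs held 89.3% of the Cnfn UMIs, and without it the level was 2.75 CPM. Over all samples 18 cells held 50% of the 6223 UMIs. Dhrs9 and Gatm, in contrast, were spread over many cells, with 281 and 801 cells holding 50% of theirs.

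Dhrs9 and Cnfn shared 1 subset. Subset 10, led by Muc13, Mxd1 and Krt80, had 5 of 12 BEC markers detected, against 8 to 11 in BEC-like subsets 1, 4, 5 and 7. It is given no cell type name here. The fixed rule counted it, as it did subsets 6 and 15, with the BEC-like subsets, and it was included where those were taken alone. Subsets 8, 11 and 13, with 8 of 12 BEC markers detected in each, got no name by that rule and were left out there. Over all samples it held 57.1% of the epithelial Dhrs9 UMIs and 83.9% of the Cnfn UMIs in its 1377 cells, whereas Akr1c15 there was at 8.04 CPM. The shares differed between samples. Of the Dhrs9 UMIs it held 73.8%, 44.4% and 27.4% in ctrl and 9.15%, 49.7% and 26.0% in treat at days 1, 3 and 7. BEC-like subset 5, led by Wfdc21, held 66.9% of the Dhrs9 and 78.4% of the Cnfn UMIs of treat day 1 and 63.2% to 92.9% of the few Dhrs9 UMIs of the sham samples. Subset 1 held 50.8% of Dhrs9 in ctrl day 7 and subset 7 held 43.1% in treat day 7. Subset 10 was 0.704%, 0.279% and 0.117% of the sham epithelium, 19.5%, 11.2% and 4.09% of ctrl and 0.566%, 2.35% and 0.885% of treat. Within it Dhrs9 was at 291, 181 and 102 CPM in ctrl and 226, 148 and 217 CPM in treat, so that the arms overlapped inside the subset while the shares of cells did not. Sham 1, 2 and 3 had 7, 7 and 3 cells of the subset, too few for a level. Cnfn within it was 370, 1372 and 531 CPM in ctrl and 53.8 and 1851 CPM in treat at days 3 and 7, and without the cell of most Cnfn UMIs it was 338, 1049 and 338 CPM in ctrl and 3.92 and 195 CPM in treat. The 28 cells of treat day 1 had 0 Cnfn UMIs, which allows up to 23.4 CPM. Because subsets were found from cells of all conditions together, a subset held mostly by 1 condition or library and that condition cannot be told apart.

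**Figure D2:**
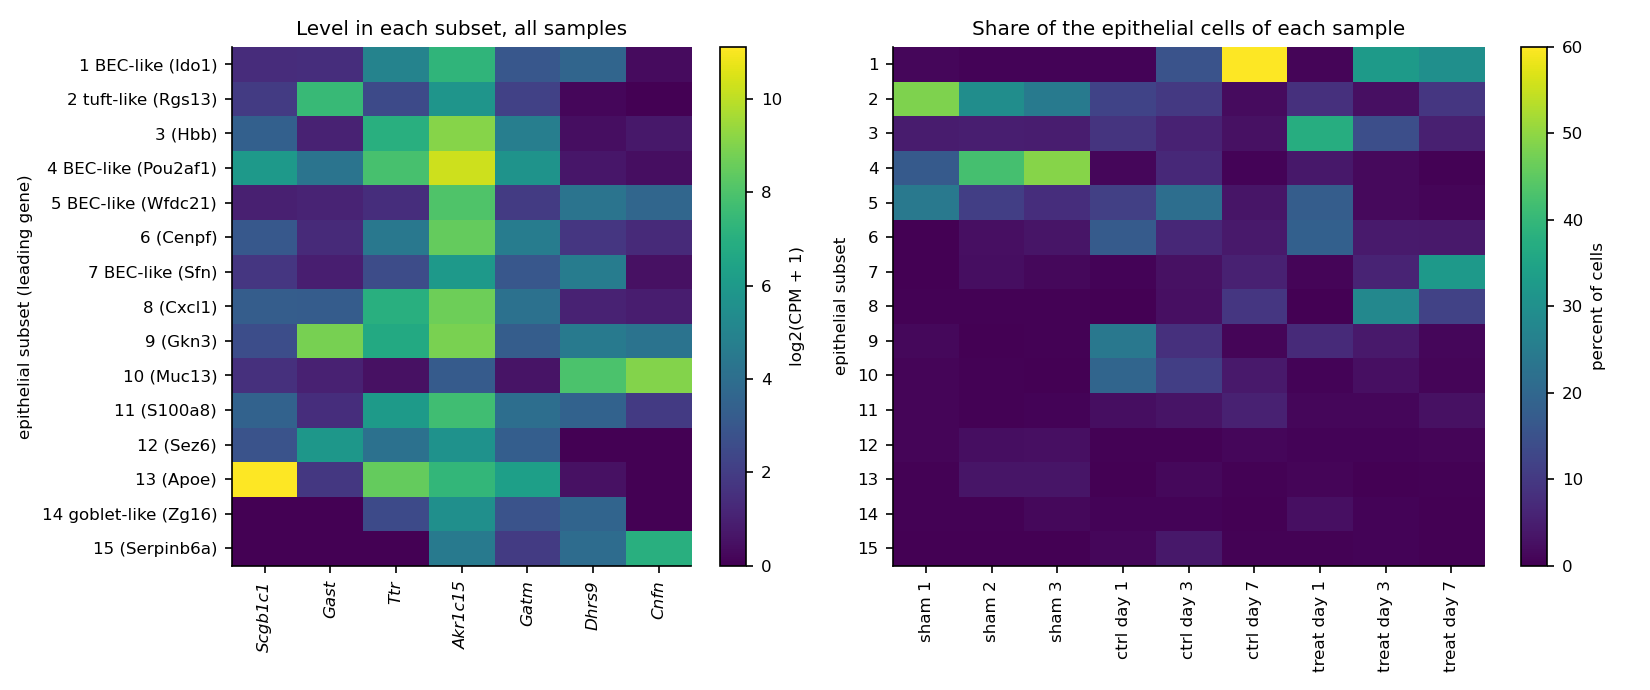
Left, level of each gene as log2(CPM + 1) in the 15 epithelial subsets over all samples, with the first leading gene of each subset in brackets. Right, share of each sample's epithelial cells in each subset in percent. Akr1c15 is present in nearly all subsets and lowest in subset 10, where Dhrs9 and Cnfn are highest, and subset 10 is largest in ctrl day 1 (19.5%) while subset 4 is largest in sham 3 (49.0%).

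**Figure D3:**
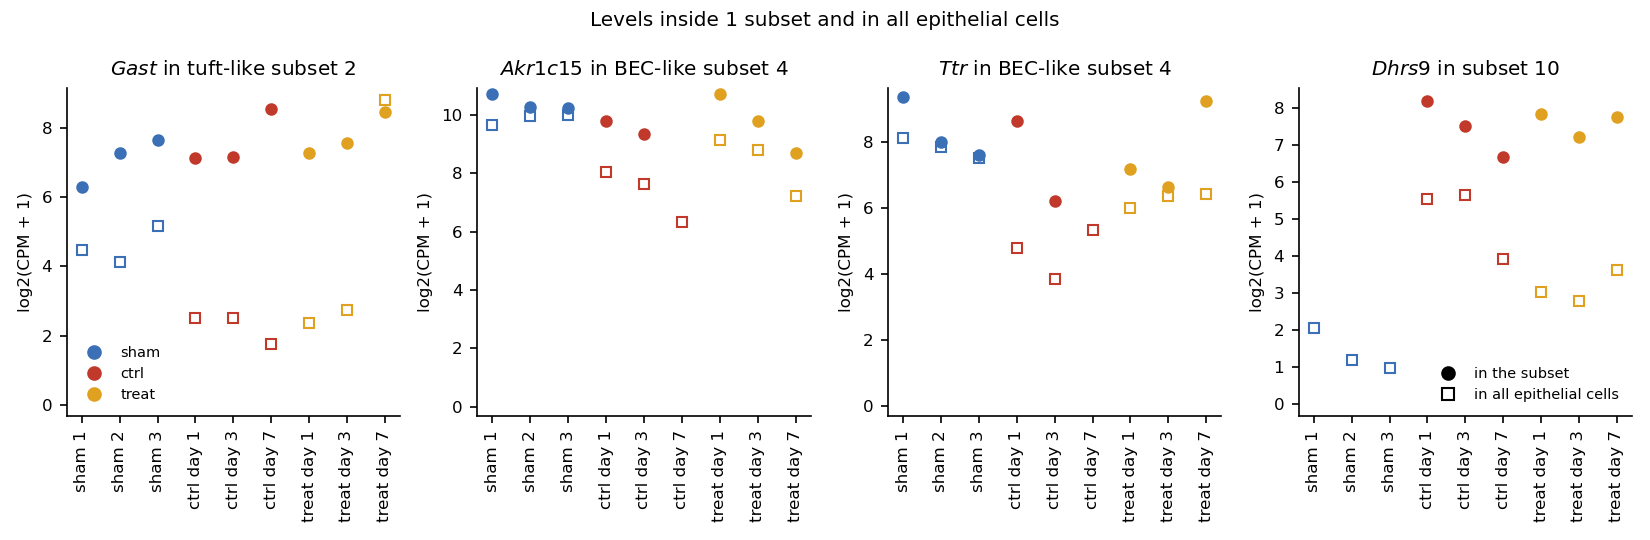
Levels of Gast, Akr1c15, Ttr and Dhrs9 as log2(CPM + 1) by sample, inside 1 subset (filled circles, shown from 20 cells) and in all epithelial cells (open squares), colored by group. For Gast the circles of transplanted and sham samples overlap while the squares of the transplanted samples lie below those of sham, except in treat day 7. Inside subset 10 the circles of Dhrs9 in ctrl and treat overlap.

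With each cell thinned to 2000 UMIs, 29.3% of the 116 ctrl day 1 cells with a Cnfn UMI had a Dhrs9 UMI, against 7.93% of those without. An Akr1c15 UMI was found in 3.45% of the cells with Cnfn and in 24.4% of the cells without. A Ttr UMI was found in 0 of the 116 cells with Cnfn, which allows a share of up to 2.59%, and in 2.31% of the others. In sham 2 and sham 3, a Ttr UMI was found in 41.1% and 43.2% of the cells with a Scgb1c1 UMI and in 14.9% and 14.1% of the others, and an Akr1c15 UMI in 35.7% and 40.2% against 61.5% and 65.0%. In sham 1, with 20 Scgb1c1 cells, the shares were 65.0% against 9.24% for Ttr and 60.0% against 35.9% for Akr1c15. These shares describe cells of the same libraries and carry no test.

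Shares of cells gave the same order of the group means as the levels, except for Gast, whose mean level in treat contains the single cell of day 7. At 2000 UMIs per cell, Akr1c15 was found in 52.8% ± 14.1 of sham, 17.7% ± 7.36 of ctrl and 30.9% ± 16.4 of treat epithelial cells (SD, n = 3 samples each). Ttr was found in 15.1%, 2.85% and 7.57%, Scgb1c1 in 7.44%, 0.443% and 0.922%, Gatm in 7.08%, 1.498% and 2.37%, and Gast in 3.18%, 0.977% and 1.10%. For Dhrs9 the shares were 0.347%, 6.26% and 1.70% and for Cnfn 0.131%, 2.53% and 0.265%. Without thinning they were 47.8%, 28.9% and 38.0% for Akr1c15, 18.9%, 5.98% and 13.2% for Ttr, 8.85%, 1.71% and 2.17% for Scgb1c1, 16.3%, 6.77% and 8.71% for Gatm, 6.12%, 1.80% and 2.83% for Gast, 0.795%, 13.8% and 3.63% for Dhrs9, and 0.309%, 3.68% and 0.488% for Cnfn. Thinning left out the shallower cells, 315, 1057 and 960 in sham, 1107, 190 and 634 in ctrl and 1766, 1030 and 1715 in treat, and tuft-like cells, with a median of 1527 UMIs, are over-represented among them. NK and T-like cells, taken as the background from free RNA, had shares of up to 2.98% for Akr1c15 (sham 3, against 62.4% in epithelial cells). For Gatm in ctrl the background was 0.971%, 0.805% and 0.227% against 1.91%, 1.23% and 1.35% in epithelial cells. For Dhrs9 it was 1.00%, 0% and 0.426% in sham 1, 2 and 3 against 0.441%, 0.414% and 0.186% in epithelial cells. These background values are 1 of 100, 0 of 145 and 1 of 235 cells, so the sham share cannot be told from background. Median UMIs per cell were 2675 to 6340 in epithelial and 2090 to 5373 in NK and T-like cells.

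By sample, 4 of the 7 genes (Scgb1c1, Ttr, Akr1c15 and Gatm) had each sham sample above each transplanted one, an order that 16.1% of the 13828 genes tested had, and 2 (Dhrs9 and Cnfn) had each sham sample below, an order that 2.70% had. Since the genes were chosen for such shifts, nothing is read from these counts. By absolute fitted difference between ctrl and sham, Cnfn stood at rank 15, Scgb1c1 at 24, Dhrs9 at 47, Ttr at 264, Akr1c15 at 502, Gatm at 665 and Gast at 1518 of the 13828 genes. The rank of Gast rests on a fitted log2 difference of −1.38, which ran from −3.56 to 0.067 with 1 sample left out. The fit shares its day terms between ctrl and treat, so that value also contains the single Gast-rich cell of treat day 7.

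The comparison of treat with ctrl asks whether the transplanted epithelium differed with the ligation meant to raise arterial flow. Ttr, Akr1c15, Gatm and Scgb1c1 were higher in treat than in ctrl at each of the 3 days, an order that 27.1% of genes had, Dhrs9 and Cnfn were lower at each day, an order that 13.1% had, and Gast was higher on 2 of 3 days. Only for Ttr did every treat sample lie above every ctrl sample, which 7.31% of genes did, and for Dhrs9 and Cnfn every treat sample lay below every ctrl sample, which 4.92% did. These orders hold for samples with their libraries summed. Without the library of most UMIs of a gene in each sample, a choice made after seeing the data, the order turned at day 7 for Ttr and stayed for Cnfn and Dhrs9 as given above. For Scgb1c1 the levels were then 1.43 CPM in ctrl and 2.18 CPM in treat at day 1 and 1.87 and 5.66 CPM at day 7. At day 3 treat was then at 1.65 CPM, library 3 having held 88.4% of its Scgb1c1 UMIs, below ctrl with all libraries at 3.87 CPM, while the few cells of ctrl libraries 2 and 3 had 0 UMIs. The fitted difference of Scgb1c1 also turned, to −0.14, with doublets kept. The fitted log2 difference was 1.58 for Ttr (SE 0.33), 1.02 for Akr1c15 (SE 0.18) and −2.09 for Dhrs9 (SE 0.53). It was −3.63 for Cnfn (SE 1.18), 0.65 for Gatm (SE 0.27), 0.89 for Scgb1c1 (SE 0.68) and 1.83 for Gast (SE 1.57). The Gast value contains the single cell of treat day 7. With 1 sample left out it ran from 0.022 to 4.12, and that of Cnfn from −5.10 to −2.19. The genes were chosen for shifts over these samples, so no p is given for them. The SE, which come from the fit of the same samples, are likewise a description and no measure of support. Over all genes, edgeR's quasi-likelihood test called 0 of 13828 (0%) in this comparison at an adjusted p of 0.05, although 1576 had an unadjusted p under 0.05, while DESeq2 called 333. The labels do not say that the samples are separate animals, so the p-values of these counts and of the lists below measure only the spread between these samples, which may be technical.

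**Figure D4:**
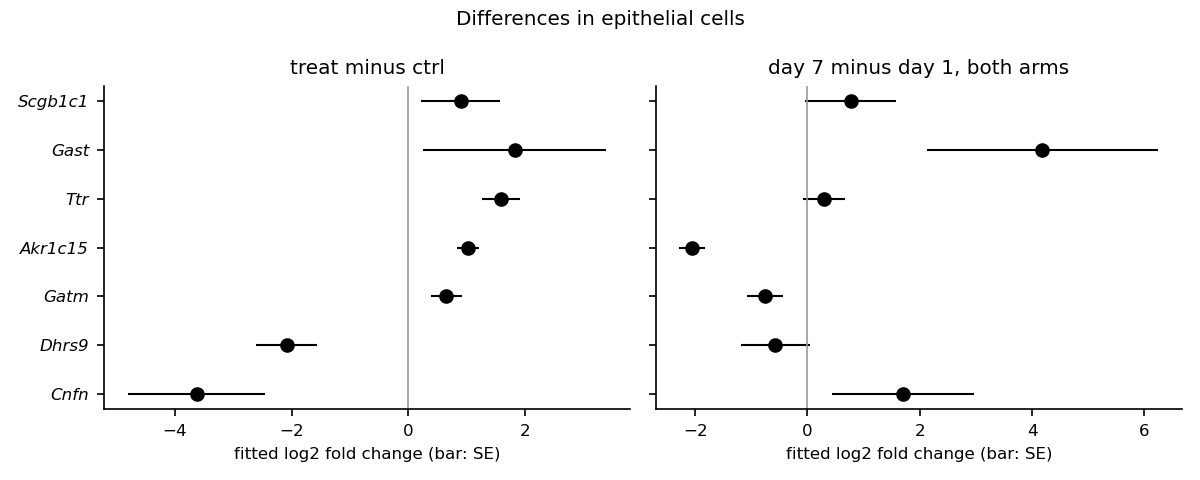
Fitted log2 fold change in epithelial cells with its standard error (bars) for treat minus ctrl (left) and for day 7 minus day 1 over both arms (right), given as a description of genes chosen from these samples. Ttr (1.58) and Akr1c15 (1.02) lie above 0 and Dhrs9 (−2.09) and Cnfn (−3.63) below in the left panel, and Akr1c15 lies at −2.05 in the right.

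Over time, from day 1 to day 7 after transplantation, Akr1c15 was lower in both arms. Its fitted log2 difference was −2.05 (SE 0.23), a 4.13-fold lower level, and without ctrl day 1, ctrl day 7, treat day 1 or treat day 7 it was −2.09, −2.23, −2.06 and −1.93. The fitted differences of the others were −0.76 for Gatm, −0.57 for Dhrs9, 0.29 for Ttr, 0.77 for Scgb1c1, 1.70 for Cnfn and 4.18 for Gast. The values for Gast and Cnfn contain the single cells of treat day 7, and without the cells of most UMIs that of Cnfn was −0.74. Without treat day 7 that of Gast was −1.07. These too are a description of chosen genes, with no test. Of all genes, 9.77% were called in this comparison (5.19% higher and 4.58% lower).

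The pathways around the 7 genes were read from 6 lists of other genes, of which 128 of 183 listed genes were tested. Between ctrl and sham 33 of them changed (edgeR, adjusted p under 0.05) against 12.8% of all genes, of which 7.12% were higher and 5.66% lower. The higher genes were 55.7% of all called genes with TMM scaling and 17.6% with scaling by library size alone, which moved the median of all genes from −0.04 to −0.32. Between treat and ctrl 0 of the 128 passed with edgeR, 36 had an unadjusted p under 0.05, and DESeq2 called 18 (2 higher and 16 lower, of which 8 lower were in the cornified list), against 2.41% of all genes. Between day 7 and day 1 13 changed, against 9.77% of all genes. These lists were set up with earlier results of the data known. They are described by their counts, with levels and fitted differences of single called genes and no p for those. The 33 and 13 calls depend on single samples: of the 33, 3 remained without sham 2, 10 without sham 3, 2, 12 and 14 without ctrl day 1, 3 and 7, and 20 and 21 without treat day 1 and 7. Of the 13, 1 remained without sham 2 and 0 without ctrl day 1, ctrl day 7, treat day 1 or treat day 7. None of them passed in the other direction under any alternative.

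Around Ttr and Dhrs9, 5 of 30 genes of vitamin A and thyroid hormone handling were higher and 4 lower in ctrl than in sham, with a median log2 difference of −0.30 over the list against −0.04 over all genes. Of this list 30% was called, against 12.8% of all genes. With scaling by library size alone the counts turned to 3 higher and 7 lower. Rbp2, a cellular retinol-binding protein, rose from 9.18 ± 3.59 to 63.3 ± 23.8 CPM (SD, n = 3; log2 2.97). Rdh10, which oxidizes retinol to retinal, rose from 45.6 to 80.6 CPM, while Dhrs3, which acts in the reverse direction, fell from 51.3 to 19.8 CPM. Thra, a thyroid hormone receptor, fell from 19.0 ± 3.36 to 6.22 ± 1.65 CPM (log2 −1.34). From day 1 to day 7, 3 genes of this list rose and 0 fell: Rarres1, Rdh5 (1.29 to 10.2 CPM in ctrl and 1.77 to 8.19 CPM in treat), a retinol dehydrogenase, and Crabp2, which binds retinoic acid in the cell. These were 10% of the list, near the 9.77% of all genes called in that comparison.

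Around Akr1c15, 3 of 24 aldo-keto reductases and steroid oxidoreductases were higher in ctrl than in sham and 2 lower, with a median of −0.02, and with scaling by library size alone 2 were higher and 4 lower. With TMM scaling 20.8% of the list was called, against 12.8% of all genes. Srd5a1, a steroid reductase, rose from 9.29 ± 1.91 to 28.4 ± 12.7 CPM (log2 1.81) and Akr1a1 from 346 to 415 CPM. Hsd11b1, which regenerates active glucocorticoid, fell from 4.84 to 1.70 CPM. Akr1c13, a relative of Akr1c15, rose from 1.81 to 4.09 CPM, with the same doubt on the placing of reads between copies. From day 1 to day 7, Akr1c2 and Cbr3 fell and no gene of the list rose with TMM scaling. The called genes were 8.33% of the list, near the 9.77% of all genes.

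Around Gatm, 3 of 21 genes of creatine and arginine-glycine metabolism were higher in ctrl than in sham and 0 lower (edgeR; 5.66% of all genes were lower), with a median of 0.19, and with scaling by library size alone 2 were higher and 1 lower. With TMM scaling 14.3% of the list was called, near the 12.8% of all genes. Ass1, the argininosuccinate synthase that leads to arginine, a substrate of Gatm, rose from 12.6 ± 2.48 to 212 ± 117 CPM (SD, n = 3; log2 4.16). It was higher at day 7 than at day 1 by 1.79 on the log2 scale (77.1 to 292 CPM in ctrl, 58.8 to 251 CPM in treat). Shmt2, which makes glycine in mitochondria, rose from 10.2 to 28.2 CPM and was lower at day 7 than at day 1. The creatine transporter Slc6a8 rose from 100.05 to 138 CPM (log2 0.77).

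Around Gast, 1 of 15 tested genes of gastrin processing and signaling rose, the tyrosylprotein sulfotransferase Tpst1, from 5.25 to 34.7 CPM (log2 2.78). Another 1 fell, the islet transcription factor Isl1, from 1.25 to 0.256 CPM, with a median log2 difference of −1.39 over the list. Calls were 13.3% of this list, near the 12.8% called among all genes. Summed endocrine markers were at 8.08, 702 and 873 CPM in sham and 39.5, 5626 and 20.8 CPM in ctrl epithelial cells. The part of these markers, and of the tuft-like share of cells given above, was not tested. Around Scgb1c1, 8 of 10 tested genes of a list of secretoglobins and other genes of mucosal secretion were higher in ctrl and 0 lower, against 7.12% higher and 5.66% lower of all genes. The median log2 difference was 2.0, so that Scgb1c1 moved against the median of the tested genes of its list. None of the genes named below is a secretoglobin, so their values do not describe other secretoglobins. Slpi, a secreted protease inhibitor, rose from 30.7 ± 3.35 to 193 ± 54.5 CPM (log2 2.90). Lcn2, which binds bacterial siderophores, rose from 610 to 1621 CPM, Tff1, a trefoil peptide of mucus, from 546 to 1965 CPM, and Reg3b, an antibacterial lectin, from 497 to 5215 CPM. Reg3b and Reg3g were lower at day 7 than at day 1, and Pigr, the receptor that carries IgA across epithelium, was higher. Markers of neutrophils, in which Slpi and Lcn2 are also known, summed to 1.90 to 21.1 CPM in sham and 199.97 to 413 CPM in ctrl epithelial cells, and summed goblet markers to 2921 to 3746 CPM in sham and 4561 to 8071 CPM in ctrl, with Tff3 in the goblet list and in this one. The part of either in these values was not tested.

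Around Cnfn, 6 of 28 genes of the cornified envelope and squamous epithelium were higher in ctrl than in sham and 0 lower, with a median of 0.38, and with scaling by library size alone 2 were higher. With TMM scaling 21.4% of the list was called, against 12.8% of all genes. Krt16, a keratin of activated squamous epithelium, rose from 1.33 ± 0.961 to 29.1 ± 21.2 CPM (log2 4.29) and Lypd3 from 36.8 to 79.8 CPM. Grhl3, a transcription factor of barrier epithelium, rose from 17.2 to 22.8 CPM and Perp, a desmosomal protein, from 358 to 423 CPM. From day 1 to day 7 Lypd3 and Krt10 fell, 7.14% of the list against 9.77% of all genes called.

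The genes most like each of the 7 were read from log2(CPM + 1) over the 18 libraries with at least 50 epithelial cells, among 5059 genes with a mean of at least 20 CPM. For Scgb1c1 they were Ddah2 (Pearson r 0.84), Dync2li1 (0.83) and Kitlg (0.81), for Ttr LOC689574 (0.85), Pja1 (0.84) and RGD1311899 (0.83), and for Akr1c15 Ppig (0.89), C1galt1c1 (0.87) and Tfam (0.86). For Gatm they were Snrnp27 (0.87), Arl3 (0.86) and Kitlg (0.85), for Dhrs9 Ggct (0.88), Riok3 (0.85) and Slc2a1 (0.85), and for Cnfn Ctsb (0.83), Glrx (0.80) and Serpinb6a (0.79). The values for Gast, with Mpp6 (0.71), Etaa1 (0.69) and Slc5a2 (0.69), include the library of the single Gast-rich cell. Between the 7 genes r was 0.68 for Dhrs9 and Cnfn and −0.84 for Dhrs9 and Ttr. The libraries come from 9 samples in 3 groups and share the makeup of subsets and the depth of their group, so these values describe the pattern over libraries and carry no test.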

How the data were processed

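The count matrices of 20 libraries from 9 bile duct samples were used as deposited: whole UMI counts per gene and barcode, which the authors made with Cell Ranger (5.0.1 in the submitters' processing notes, which also name Seurat 3.2.0; the file headers show Cell Ranger 4). The genome build is not given in the sources used here, and no coordinates or sequences are reported. Library 1 of treat day 3 was not analysed here. The 7 genes and all gene lists were chosen with earlier results of these data known.

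A barcode counted as a cell when its detected genes numbered above 400 and below 6000 and when mitochondrial transcripts were less than 25% and hemoglobin transcripts less than 3% of its UMIs. These limits are those that a paper using this series as earlier data states in its supplement for its own human single-cell data. Per library, cells above the 92.5th percentile of a simulated-doublet score were removed, a caller that found 296 of 498 known doublets in a test. Cells were clustered (2000 variable genes without the 7 genes and the lists, 30 components, Leiden resolution 0.9). A cluster was epithelial when at least 3 of 10 fixed markers were in over 10% of its cells and over 2-fold above the median cluster, a rule settled after the clusters' genes had been seen and before any test. Epithelial cells were clustered again (resolution 0.6), and subsets were named from fixed markers. The fixed rule also named subsets 6, 10 and 15 BEC, with 3, 5 and 4 of 12 BEC markers detected, and that name was not used for them here. It gave no name to subsets 8, 11 and 13, with 8 of 12 detected in each. Values of BEC-like subsets only include the former and leave out the latter.

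Epithelial UMIs were summed per sample (4455798 to 58884163) and tested with edgeR 4.0.16 (quasi-likelihood test, TMM, filterByExpr, Benjamini-Hochberg). The 1 fit of 9 samples had terms for sham, for each day, shared by ctrl and treat, and for treat, leaving 4 residual degrees of freedom. Fitted values of ctrl minus sham thus also draw on the treat samples. For the 7 genes, chosen from these samples, only the fitted differences are given, with no p. The day, which the labels give, thus blocks the arms. Same-day ctrl and treat samples had correlated deviations at days 1 and 7 (r = 0.52 and 0.54) and not at day 3 (−0.06). On simulated counts of the 13828 genes, the test of treat minus ctrl recovered 59% of 100 genes changed by 2 on the log2 scale and 20% of 100 changed by 1. The named genes are the 7 genes, the 3 genes most like each by Pearson r, up to 4 called genes per list and contrast with the smallest adjusted p, and the epithelial markers. DESeq2 1.42.0 was run as an alternative, beside other scalings, filters, cell definitions and left-out samples. No replicate pair agreed within sampling noise (lowest chi-square per gene 4.58). The 95% limits from a count of 0 use 3 counts and cover counting error only. R 4.3.3, Python 3.11.15 and scikit-learn 1.9.0 were used.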

Additional observations from a re-analysis of the deposited data

How the results depend on the processing

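The number of genes called between treat and ctrl was 0 with edgeR but 333 with DESeq2, 2 without a filter on low counts, 2 in BEC-like subsets only, 209 with each library as a sample and 0 to 7 when 1 sample was left out. Between day 7 and day 1 it was 1351, against 2768 with DESeq2, 2452 in BEC-like subsets only, 3555 with each library as a sample and 0 to 3541 with 1 sample left out. Between ctrl and sham it was 1767, against 2949 with DESeq2 and 37 to 2816 with 1 sample left out, lowest without ctrl day 1 and highest without sham 1. Without the replicate block, that is without the day as a term, 613 genes were called between ctrl and sham and 0 between treat and ctrl, and the block changed no other call. A fit without the day cannot give day 7 minus day 1. The libraries of a sample are not shown to be separate animals, so counts from each library as a sample are too high where they are not. The higher genes were 53.1% of the calls of day 7 minus day 1, 41.0% with the size factors of DESeq2 and 82.1% with library size alone, which moved the median log2 difference of all genes from 0.08 to 0.30.

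For the 7 genes, no value of treat minus ctrl changed direction under the alternatives run except that of Scgb1c1 with doublets kept (−0.14). For day 7 minus day 1, Gast was −0.61 in BEC-like subsets only and Cnfn −0.74 without the cells with most UMIs, and with 1 sample left out Gast ranged from −1.07 to 6.35, Ttr from −0.24 to 0.65, Dhrs9 from −1.98 to 0.47 and Cnfn from −1.53 to 3.34. The fitted difference of ctrl from sham moved for Scgb1c1 with doublets kept (−4.32), for Ttr in BEC-like subsets only (−4.07), for Gatm with library size alone (−2.34) and with 1 sample left out (−2.37 to −1.87), and for Cnfn with 1 sample left out (4.58 to 7.29). For Gast it was −3.82 in BEC-like subsets only, −2.34 without the replicate block, −2.26 without the epithelial cluster of fewest markers, −2.50 without the cells with most UMIs, and −3.56 to 0.067 with 1 sample left out. Mean levels that moved by more than 1 SD were those in BEC-like subsets only, Scgb1c1 at 1.77 CPM in ctrl and 3.00 in treat, Gast at 12.1 in sham and 0.706 in ctrl, Ttr at 12.6 in ctrl and 29.7 in treat, Akr1c15 at 1089 in sham and Dhrs9 at 14.7 in treat, and Scgb1c1 at 7.38 in ctrl with doublets kept and Gast at 2.59 in ctrl without the cells with most UMIs. Leaving out the cluster of fewest markers and the cells with most UMIs was chosen after seeing the data. BEC-like subsets only leave out subsets 8 and 13, which held much of the Ttr and Scgb1c1 UMIs. The cause of these changes was not tested. Precision is limited by 1 sample per arm and day and, for Cnfn, Gast and Scgb1c1, by the few cells that hold most UMIs.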
